A study of Mus musculus with 4 samples.

Results

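The transcription factor p53, encoded by Trp53 in the mouse, and 9 genes that it is known to activate were measured in differentiating mouse embryonic stem cells: Mdm2, Ccng1, Bbc3, Pmaip1, Bax, Sesn2, Trp53inp1, Zmat3 and Phlda3. The genes were chosen by name, with earlier results of these data known, so they were given no test as a list. All transcript rows carrying 1 of these symbols were taken from the 4 deposited tables and summed per gene. All 10 were found, among 27408 symbols, and all 10 passed the filter that left 11736 genes for testing, a mean of at least 1 FPKM (mapped fragments scaled to transcript length and library size) over the 4 libraries.

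The libraries came from CJ9 cells, an embryonic stem cell line of mouse strain 129S4/SvJae. Cells were labelled WT and titled as carrying Cas9 only. They were grown without leukemia inhibitory factor (LIF), the cytokine that keeps such cells undifferentiated, and 2 libraries were titled day 6 and 2 day 4. The study concerns deletion of the Evx1as/Evx1 locus, and the deleted cells were not analysed here, so the comparison is of the later with the earlier day in Cas9-only cells. The culture text of the labels gives other times without LIF than the titles for 3 of the 4 libraries (both day 4 libraries and day 6 replicate 1), and the titles were followed. No label says that the 2 libraries of a day were separate cultures, so every p-value is measured against a spread that may be no more than technical.

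p53 is kept scarce in unstressed cells by Mdm2, a ubiquitin ligase that marks it for destruction and whose own gene p53 activates. DNA damage and other stresses break this loop, and the stabilised protein then turns on genes of cell cycle arrest, repair, apoptosis and metabolism. Mouse embryonic stem cells are known for abundant p53 and for p53 that lowers pluripotency genes when it is activated. The protein's activity is set largely after transcription, so the level of Trp53 RNA is not a measure of it, whereas the RNA of its targets reports on it together with other regulators of each gene.

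p53 binds a pair of half-sites of 10 bases, and 7 of the 10 genes had at least 1 RefSeq promoter window (GRCm38.p6, 250 bases before to 50 after a transcript start) in which such a pair could be looked for. The pair was allowed a spacer of up to 13 bases, and the window's best match to the 20 consensus bases was taken; the consensus reads the same on both strands. Bax and Ccng1 had matches with 1 mismatch, as good as in only 1.09% of all 32851 windows. Bbc3 had 3 mismatches in 2 of its 3 windows and 6 in the other. Trp53 also had 3, a count met or bettered in 45.1% of windows, and Mdm2, Sesn2 and Phlda3 had 4 (89.3%). The 3 stretches below are shown because they hold the closest matches of the targets, for Bbc3 the one of its 2 equal matches whose half-sites adjoin, with the 2 half-sites in capitals, and are written 5′ to 3′ on the strand of the gene. The Bax stretch is chr7:45467060-45467140 on the minus strand, that of Ccng1 chr11:40755432-40755511 on the minus strand, and that of Bbc3 chr7:16309456-16309535 on the plus strand. A match describes letters only and is no evidence of binding.
Bax: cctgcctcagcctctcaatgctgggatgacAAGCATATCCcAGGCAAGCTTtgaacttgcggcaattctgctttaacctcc
Ccng1: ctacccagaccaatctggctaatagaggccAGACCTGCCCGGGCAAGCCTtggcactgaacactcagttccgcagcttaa
Bbc3: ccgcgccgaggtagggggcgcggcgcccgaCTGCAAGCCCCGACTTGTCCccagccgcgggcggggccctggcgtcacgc

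The libraries differed in depth and in composition. If the deposited FPKM bounds cover counting error only, their widths correspond to about 6420000 and 5720000 mapped fragments at day 6 and 3820000 and 3670000 at day 4, replicates 1 and 2. The median log2(FPKM + 1) of the tested genes was 3.45 and 3.39 at day 6 and 3.02 and 2.57 at day 4, and the median of the gene differences was 0.51 log2 units, day 6 minus day 4. Oct4 (Pou5f1), which marks embryonic stem cells, was at 54.9 and 42.0 FPKM at day 6, against 368 and 376 FPKM at day 4. Of 6 stem cell markers, all detected in every library, 3 lay lower at day 6 with no overlap (Pou5f1, Nanog and Sox2) and 3 higher (Klf4, Esrrb and Zfp42), and none passed. Their sum, in which Pou5f1 is the most abundant at day 4, was 109 and 90.8 FPKM at day 6, against 530.1 and 493 FPKM at day 4. Less RNA per cell and fewer cells of a type cannot be told apart in such bulk samples.

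No member passed the test between the days. Both day 6 values of Trp53 exceeded both of its day 4 values, for Pmaip1 both lay below, and the days overlapped for the other 8. That is 1 of 10 higher without overlap, where 41.5% of all genes tested were, and 1 of 10 lower, where 11.5% were. Of all genes, 0% passed limma's moderated test at a Benjamini-Hochberg adjusted p of 0.05 (15.4% at an unadjusted p of 0.05, and 0 of the 10). The members' adjusted p ranged from 0.509 to 0.927, and an exact two-sided permutation test of 2 libraries against 2 cannot go below 0.33. Their median log2 difference, day 6 minus day 4, was -0.17, beside 0.51 for all genes tested. Changing the scaling moved both: with each library centred on its median gene the members' median was -0.80 and that of all genes -0.12.

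**Figure D1:**
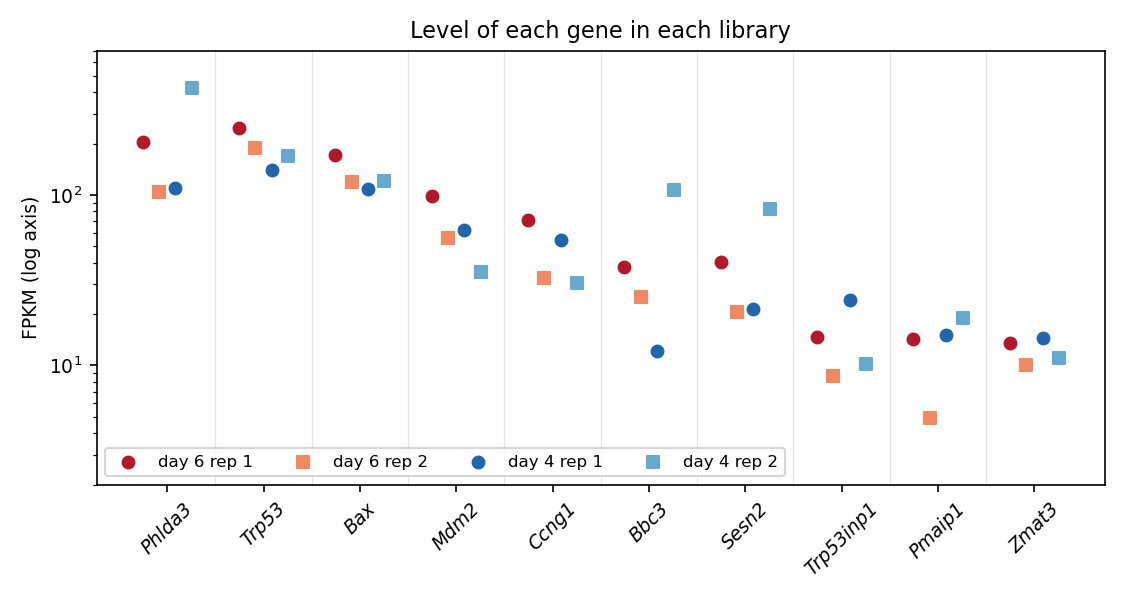
FPKM (log axis) of each of the 10 genes in each library, ordered by the mean over the 4 libraries, with 1 point per library. Phlda3, Bbc3, Sesn2 and Pmaip1 have their highest value in day 4 replicate 2, and every gene is lower in day 6 replicate 2 than in day 6 replicate 1.

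**Figure D2:**
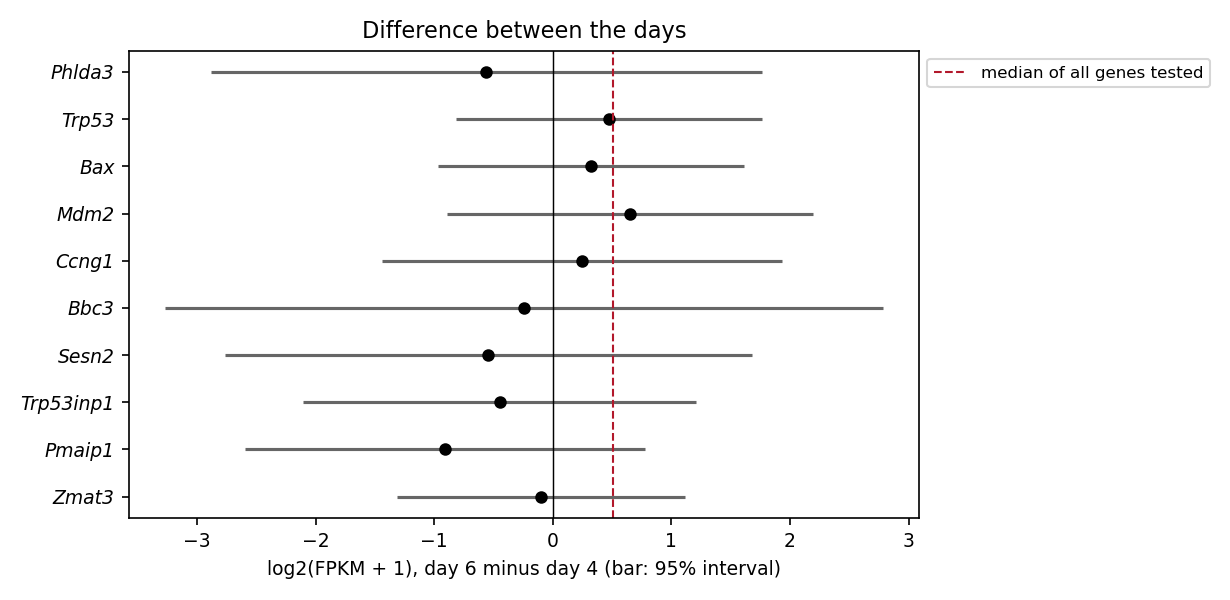
Difference between the days on the log2(FPKM + 1) scale, day 6 minus day 4 (points), with its 95% interval from limma (bars), for the 10 genes; the dashed line is the median of all genes tested, 0.51. Every interval spans 0.

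Trp53 itself (chromosome 11, 69580359 to 69591873 in mm10, plus strand) gave no difference between the days that passed. It was among the more abundant transcripts: its mean of 186 FPKM exceeded that of 96.9% of tested genes. It was at 246 and 188 FPKM at day 6, against 141 and 169.8 FPKM at day 4, a mean of 217 ± 40.5 and of 155 ± 20.5 FPKM (SD, n = 2 each). The difference was 0.47 log2 units (SE 0.48, 95% interval -0.81 to 1.76; limma, adjusted p = 0.648), beside the median of 0.51 over all genes. It became -0.15 with median centring and -0.08 with a correction for the GC content of transcripts, so its sign depended on the scaling. The RefSeq table lists a pseudogene, Trp53-ps, and whether its reads were counted as Trp53 is not stated, so the level is uncertain to that extent. The 3 genes of 5446 compared whose profiles over the 4 libraries lay closest to that of Trp53 were Cluh, Polr2i and Nabp1, with Euclidean distances of 0.06, 0.08 and 0.08 log2 units between centred profiles. With 4 libraries this likeness is a description.

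Mdm2, on the minus strand of chromosome 10 (117688875 to 117710758), is both the chief inhibitor of p53 and its target. It was at 98.1 and 56.2 FPKM at day 6, against 62.3 and 35.2 FPKM at day 4, with replicate 1 above replicate 2 on both days. The days overlapped, since day 4 replicate 1 exceeded day 6 replicate 2. The difference was 0.65 log2 units (SE 0.57, 95% interval -0.89 to 2.20; limma, adjusted p = 0.601). Without day 4 replicate 1 it was 1.06 and passed (adjusted p = 0.0453), but in that fit 66.8% of all genes did; without day 4 replicate 2 it was 0.25. With the GC correction it was -0.0034.

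The members that promote cell death were Bbc3, Pmaip1, Bax and Phlda3. Bbc3 (chromosome 7, 16309583 to 16318334) encodes Puma, a BH3-only protein that frees Bax and its relatives to permeabilise mitochondria. It was at 37.9 and 25.2 FPKM at day 6, against 12.1 and 107 FPKM at day 4, so both day 6 values lay between the 2 day 4 values, which were 8.84-fold apart. Its difference of -0.24 log2 units (SE 1.13, 95% interval -3.27 to 2.78; limma, adjusted p = 0.927) therefore hung on the choice of day 4 library. It was -1.76 without day 4 replicate 1 (adjusted p = 0.00436, where 66.8% of all genes passed) and 1.28 without day 4 replicate 2 (adjusted p = 0.0160, where 51.7% did). It was 0.04 without day 6 replicate 2.

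Phlda3 (chromosome 1, 135766085 to 135769134), which competes with Akt for membrane lipid and so dampens that survival kinase, had the highest mean of the 10, at 211 FPKM. It was at 204 and 104 FPKM at day 6, against 109 and 426 FPKM at day 4, with day 4 replicate 2 far above the other libraries. Its difference was -0.56 log2 units (SE 0.86, 95% interval -2.88 to 1.76; limma, adjusted p = 0.769), 0.42 without day 4 replicate 2 and -1.54 without day 4 replicate 1 (adjusted p = 0.0231, where 66.8% of all genes passed). Pmaip1, on chromosome 18, encodes Noxa, a BH3-only protein that binds Mcl1. It was at 14.3 and 4.93 FPKM at day 6, against 15.1 and 18.9 FPKM at day 4, so both day 6 libraries were the lower ones, but day 6 replicate 1 only narrowly. The difference was -0.91 log2 units (SE 0.63, 95% interval -2.59 to 0.77; limma, adjusted p = 0.509), -1.59 without day 6 replicate 1 and -0.23 without day 6 replicate 2. Bax (chromosome 7, 45461695 to 45466898), the pore-forming effector, was the steadiest of the abundant members. It was at 172 and 119 FPKM at day 6, against 108 and 121 FPKM at day 4, and 3 of the 4 values lay close together. All 4 Bax values, and 3 of the 4 of Phlda3, lie above their own deposited upper bounds. Its difference was 0.32 log2 units (SE 0.48, 95% interval -0.97 to 1.61; limma, adjusted p = 0.763), 0.06 without day 6 replicate 1 and -0.31 with median centring.

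The other members act in arrest, metabolism, autophagy and RNA stability. Ccng1 (chromosome 11, 40748552 to 40755286) encodes cyclin G1, which recruits a phosphatase to Mdm2. It was at 71.4 and 32.8 FPKM at day 6, against 54.4 and 30.3 FPKM at day 4, so the replicates of a day differed more than the days did. Its difference was 0.25 log2 units (SE 0.63; limma, adjusted p = 0.862), -0.16 without day 4 replicate 2 and -0.30 without day 6 replicate 1. Sesn2 (chromosome 4, 132492807 to 132510456) encodes sestrin 2, a leucine-binding inhibitor of mTORC1 signalling. It was at 40.2 and 20.5 FPKM at day 6, against 21.5 and 82.2 FPKM at day 4. As for Phlda3 and Bbc3, day 4 replicate 2 was the highest library. The difference was -0.54 log2 units (SE 0.83; limma, adjusted p = 0.767), 0.40 without day 4 replicate 2 and -1.49 without day 4 replicate 1 (adjusted p = 0.0241, where 66.8% of all genes passed).

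Trp53inp1 (chromosome 4, 11156441 to 11174377), a nuclear protein that takes part in p53 phosphorylation and in autophagy, was at 14.7 and 8.72 FPKM at day 6, against 24.2 and 10.2 FPKM at day 4. Its difference was -0.45 log2 units (SE 0.62; limma, adjusted p = 0.740), 0.13 without day 4 replicate 1, and -1.03 without day 4 replicate 2 (adjusted p = 0.0446, where 51.7% of all genes passed). Zmat3 (chromosome 3, 32334794 to 32365665) encodes a zinc finger protein that binds RNA and alters splicing and decay. It was the lowest and the most even member, at 13.6 and 10.05 FPKM at day 6, against 14.4 and 10.99 FPKM at day 4. Its difference was -0.10 log2 units (SE 0.45, 95% interval -1.31 to 1.11; limma, adjusted p = 0.924), 0.08 without day 4 replicate 1 and 0.10 without day 6 replicate 2. The row of 4930429B21Rik shares 177 bases with the locus of Zmat3 at its start and was at 0.954 and 0.257 FPKM at day 6, against 1.20 and 0.332 FPKM at day 4.

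The members differed together between the 2 day 6 libraries. All 10 were lower in day 6 replicate 2 than in day 6 replicate 1, where 56.5% of all genes tested were, and 8 of 10 were lower by over 0.5 log2 units, where 8.30% of all genes were. The median of the 10 was -0.74 log2 units, against -0.05 for all genes. Pmaip1 was 1.37 log2 units lower, Ccng1 1.10, Phlda3 0.96 and Sesn2 0.94, whereas Trp53 was only 0.38 lower. The count stayed at 10 of 10 under median centring, quantile normalisation and the GC correction, and genes of like GC content had medians from -0.12 to -0.01. This is a difference between 2 single libraries of 1 day, so it has no replicate check and no test.

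The same pair of libraries was compared over further p53 targets taken from general knowledge of the pathway, with earlier results of these data known. This list is therefore no independent check. It held 38 genes, of which 33 were tested. Of these, 31 were lower in day 6 replicate 2, with a median of -0.52 log2 units, and 18 were lower by over 0.5 log2 units (56.5% and 8.30% of all genes). Cdkn1a, which encodes the cell cycle inhibitor p21, was at 45.2 FPKM in replicate 2 and 94.0 FPKM in replicate 1. Perp, a desmosomal membrane protein tied to cell death, was at 40.9 FPKM in replicate 2 and 105 FPKM in replicate 1. The polo-like kinase gene Plk2 had 25.9 FPKM in replicate 2 and 57.1 FPKM in replicate 1. The 2 exceptions were Sesn1 and Ddb2, a DNA damage recognition gene, which were higher in replicate 2 by 0.46 and 0.54 log2 units. Of 25 tested regulators of p53, which for the most part are not its targets, 13 were lower in replicate 2, with a median difference of -0.000225 log2 units. The same count was 9 of 11 in the BCL2 family (median -0.11), 5 of 6 for the stem cell markers (median -0.28) and 4 of 12 in the caspase cascade (median 0.06), so a lean in sign was not confined to p53 targets. Fewer genes of these lists were lower by over 0.5 log2 units. They were 3 of 25 regulators, 2 of 11 BCL2 family genes, 1 of 6 stem cell markers and 0 of 12 caspase cascade genes (8.30% of all genes). Day 6 replicate 2 also held more RNA of mesoderm, erythroid, fibroblast and endoderm markers. All 4 mesoderm markers were higher in it (summed level 409 FPKM, against 222 in replicate 1), as were both embryonic globin genes (709 and 178), 4 of 5 fibroblast markers (270.1 and 139.9) and 3 of 4 endoderm markers (59.0 and 39.3). At day 4 the globin genes were at 0 in both libraries, and the fibroblast markers summed to 9.84 and 8.39 FPKM in replicates 1 and 2. The part of cell composition in the difference between the day 6 libraries was not tested.

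**Figure D3:**
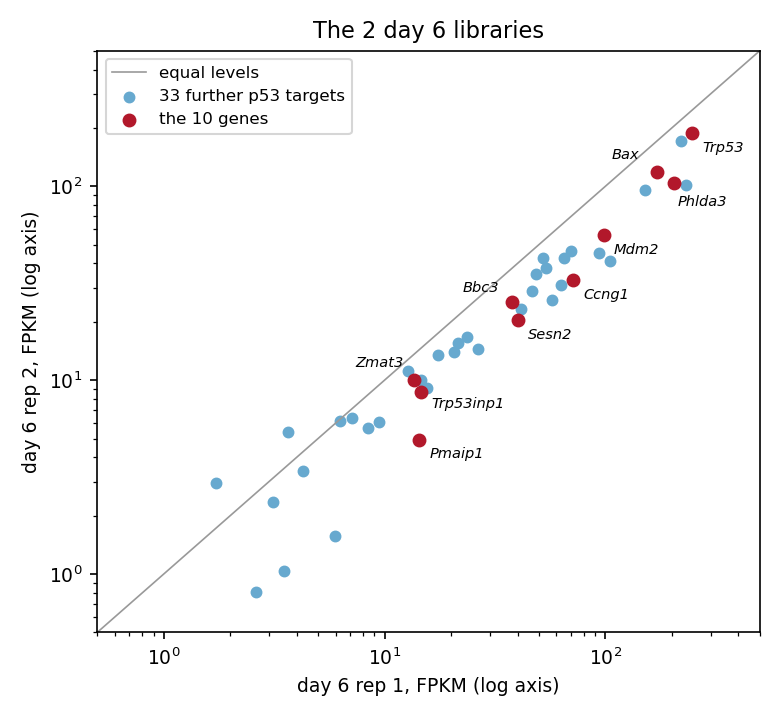
Level of the 10 genes (red, named) and of 33 further p53 targets (blue) in day 6 replicate 2 against day 6 replicate 1, in FPKM on log axes; the line marks equal levels. All 10 genes and 31 of the 33 further targets lie below the line.

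The 2 day 4 libraries differed in another way, in step with GC content. Bbc3, with a transcript of 65.2% GC, exceeded its replicate 1 level by 3.04 log2 units in replicate 2, Phlda3 (62.6% GC) by 1.96 and Sesn2 (58.7% GC) by 1.89. In all, 6 of 10 members were above their replicate 1 level in replicate 2, where 42.9% of all genes were, and these 3 of 10 by over 1 log2 unit, where 20.0% of all genes were. At the other end, Trp53inp1 (38.8% GC) was 1.17 lower, Ccng1 (40.8% GC) 0.82 lower and Mdm2 (46.3% GC) 0.81 lower in replicate 2. Genes within 2 percentage points of GC differed likewise: their median was 1.73 for Bbc3, 1.60 for Phlda3 and 1.08 for Sesn2, but -1.75 for Trp53inp1, -1.70 for Ccng1 and -1.18 for Mdm2. All members but Bax lay above the median of their GC neighbours; Bax was at 0.15 and its neighbours at 1.17. Pmaip1, at 42.1% GC, was 0.30 higher where its neighbours had a median of -1.57. After the GC correction Bbc3 was still 1.02, Sesn2 0.76 and Phlda3 0.28 log2 units higher in replicate 2. The share of these gaps that goes with GC content was not tested beyond that correction. Cell type markers differed between the day 4 libraries too. All 4 primitive streak markers were higher in replicate 2 (summed level 630 FPKM, against 251 in replicate 1), as were 3 of 6 stem cell, 2 of 4 endoderm and 1 of 4 mesoderm markers (42.9% of all genes). The part of cell composition in these gaps was not tested.

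**Figure D4:**
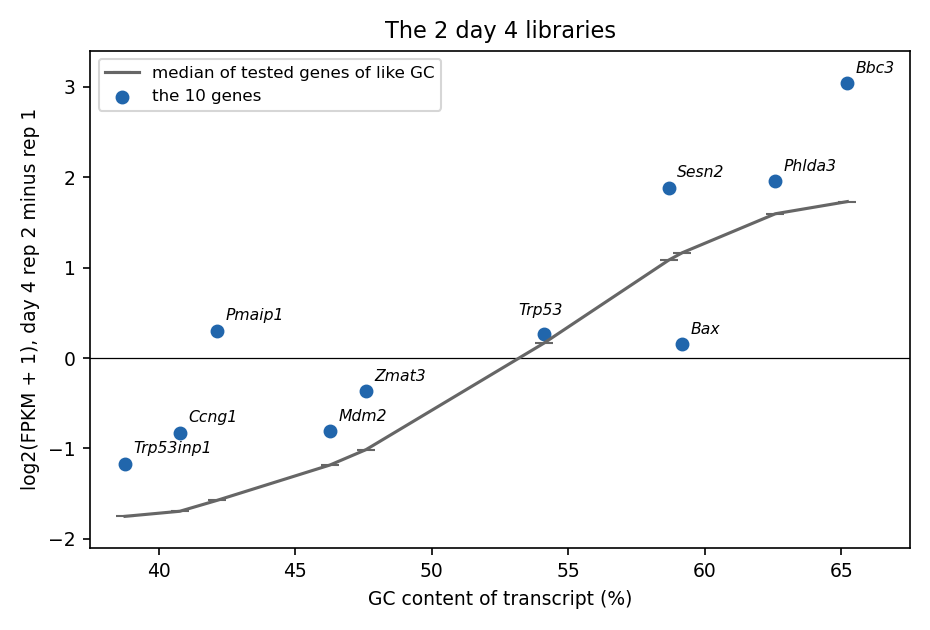
Difference between the 2 day 4 libraries on the log2(FPKM + 1) scale, replicate 2 minus replicate 1, against the GC content of the transcript, for the 10 genes (points); the line joins the medians of tested genes within 2 percentage points of GC of each. The line climbs with GC content, and 9 of the 10 genes lie above it.

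Trp53, Mdm2 and Trp53inp1 each have 2 transcript rows, and in each gene the rows differ by a stretch of annotated sequence. In Trp53, NM_001127233 is 96 bases longer than NM_011640, the length by which an earlier acceptor site extends exon 11 in GENCODE M21. The longer form is the alternatively spliced mouse p53 with another carboxy terminus. In Mdm2, NM_001288586 is 85 bases shorter than NM_010786, the length of exon 3, which holds the start codon of the full-length protein that binds p53 through its amino terminus. In Trp53inp1, NM_001199105 is 38 bases longer than NM_021897, the length of an internal exon, exon 4, and not a multiple of 3. The match rests on these lengths for Mdm2 and Trp53inp1. The sequences that set the rows apart are printed from GENCODE M21 transcripts (GRCm38), 5′ to 3′ on the strand of the gene. For Trp53 this is the coding part of the extra 96 bases up to its stop codon (capitals), chr11:69591254-69591308 on the plus strand. For Mdm2 it is exon 3 with the start codon in capitals, chr10:117709700-117709784 on the minus strand, and for Trp53inp1 the whole exon, chr4:11167897-11167934 on the plus strand.
Trp53: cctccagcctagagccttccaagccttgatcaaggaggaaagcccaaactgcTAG
Mdm2: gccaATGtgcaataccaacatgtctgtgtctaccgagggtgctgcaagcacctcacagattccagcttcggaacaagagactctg
Trp53inp1: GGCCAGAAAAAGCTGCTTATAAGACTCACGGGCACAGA

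The 38-base exon of Trp53inp1 marked the clearest difference between the days among these rows. The row that holds it (NM_001199105) was at 4.76 and 3.14 FPKM at day 6, against 0.000509 and 0.00718 FPKM at day 4, with deposited upper bounds of 0.0742 and 0.0750 FPKM at day 4. The row without it (NM_021897) was at 9.89 and 5.58 FPKM at day 6, against 24.2 and 10.2 FPKM at day 4. As listed, the longer form thus took 32.5 and 36.0% of the gene at day 6 and under 0.1% at day 4. Only fragments that reach or skip these 38 of 5430 bases can tell the 2 rows apart. Whether the deposited bounds cover the assignment of fragments between rows is not stated. The log2 differences were 2.28 (SE 0.42; adjusted p = 0.243) for the longer and -0.99 (SE 0.65; adjusted p = 0.514) for the shorter row, from limma over 13859 transcript rows, a fit added after the values were seen. Neither passed, as for 0% of all rows. The longer row was higher without overlap, as 39.8% of rows were, and the shorter lower without overlap, as 11.8% were. The longer row passed without day 4 replicate 1 (adjusted p = 0.0204, where 55.3% of all rows passed) and without day 4 replicate 2 (adjusted p = 0.0320, where 34.7% did). It did not pass without day 6 replicate 1 (adjusted p = 0.271) or day 6 replicate 2 (adjusted p = 0.231), where 0% of all rows did. Of 8020 rows of tested genes with 2 or more rows, 387 (4.83%) were likewise at 1 FPKM or more in both day 6 libraries and under 0.1 FPKM in both day 4 libraries, and 45 (0.561%) the other way round.

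The rows of Trp53 and Mdm2 split between libraries rather than days. The longer Trp53 row made up 16.2 and 15.7% of the gene at day 6 and 20.9% in day 4 replicate 1, but 0.000176% in day 4 replicate 2. There it was listed at 0.000299 FPKM, with an upper bound of 0.232, while the shorter row was at 169.8 FPKM. Its log2 difference was 2.68 (SE 1.77; limma over rows, adjusted p = 0.519), but 0.22 without day 4 replicate 2 and 5.14 without day 4 replicate 1 (adjusted p = 0.0105, where 55.3% of all rows passed). The full-length Mdm2 row (NM_010786) took 51.1 and 57.9% of the gene at day 6, 66.6% in day 4 replicate 1 and 22.2% in day 4 replicate 2. It was at 50.1 and 32.5 FPKM at day 6, against 41.5 and 7.82 FPKM at day 4, and its difference of 1.10 (SE 0.92; limma over rows, adjusted p = 0.597) was -0.037 without day 4 replicate 2 and 2.23 without day 4 replicate 1 (adjusted p = 0.0235, where 55.3% of all rows passed). The rows of a gene share most of their reads, so only fragments that reach or skip the stretch by which they differ tell them apart. Among rows of genes with 2 or more, 16.0% were under 0.1 FPKM in at least 1 library and at 5 FPKM or more in another.

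**Figure D5:**
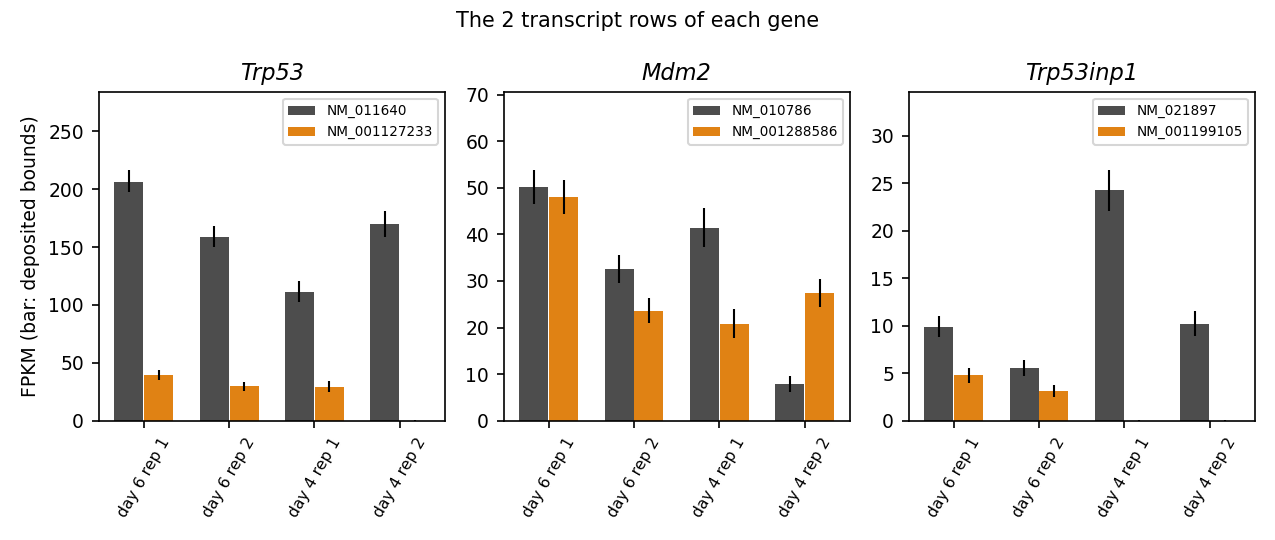
FPKM of the 2 transcript rows of Trp53, Mdm2 and Trp53inp1 in each library (bars from 0), with the deposited lower and upper bounds (vertical lines). The longer Trp53inp1 row stands above 0.1 FPKM in the day 6 libraries only, whereas the Trp53 and Mdm2 rows split differently in day 4 replicate 2 than in the other libraries.

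Between the days, the 33 further p53 targets had a median difference of 0.55 log2 units, beside 0.51 for all genes, but how the medians compared depended on the setting. They were 0.29 and -0.022 under quantile normalisation, 0.98 and 0.54 without day 6 replicate 2, and 0.15 and 0.49 without day 6 replicate 1, further targets before all genes. Of 16 tested arrest and repair genes, 5 lay higher at day 6 with no overlap and 3 lay lower (median 0.44). Of 17 tested death and metabolism genes, 10 lay higher and 2 lower (median 0.58). None passed, and of all genes 41.5% lay higher and 11.5% lower. Cdkn1a was at 94.0 and 45.2 FPKM at day 6, against 111 and 112 FPKM at day 4 (log2 difference -0.76, SE 0.56; limma, adjusted p = 0.530). Sfn, which encodes the checkpoint protein 14-3-3 sigma and is also an epithelial gene, was at 233 and 102 FPKM at day 6, against 583 and 2044 FPKM at day 4 (-2.82, SE 0.87; limma, adjusted p = 0.292). On the other side, Pltp, a phospholipid transfer protein, was at 48.4 and 35.2 FPKM at day 6, against 5.69 and 6.62 FPKM at day 4 (2.57, SE 0.45; limma, adjusted p = 0.265). Abhd4, a lipase, was at 152 and 95.6 FPKM at day 6, against 29.1 and 20.1 FPKM at day 4.

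Regulators of p53 and the machinery downstream of Puma and Noxa were measured beside the targets. Of 25 tested regulators, 8 lay higher with no overlap and 5 lower (median 0.35), where 41.5% of all genes lay higher and 11.5% lower (median 0.51). Mdm4, the partner of Mdm2 that blocks p53's transactivation domain, was at 7.13 and 9.60 FPKM at day 6, at 5.51 FPKM in day 4 replicate 1 and listed at 0 in day 4 replicate 2. Cdkn2a, whose Arf product inhibits Mdm2, was at 49.9 and 17.2 FPKM at day 6, against 1.77 and 9.22 FPKM at day 4 (2.51, SE 0.91; limma, adjusted p = 0.318). The p53 relative Trp73 was at 0.304 and 0.107 FPKM at day 6, against 1.62 and 6.71 FPKM at day 4, and Trp63 was too low to be tested. In the BCL2 family, 3 of 11 tested were higher and 3 lower without overlap. Bmf, a BH3-only gene, was at 8.66 and 14.4 FPKM at day 6, against 0.437 and 0.354 FPKM at day 4 (3.13, SE 0.45; limma, adjusted p = 0.265), whereas Mcl1, the partner of Noxa, was at 41.3 and 34.8 FPKM at day 6, against 85.8 and 73.8 FPKM at day 4. Of 12 caspase cascade genes, 7 lay higher with no overlap and 0 lower (median 1.14), beside the same 41.5 and 11.5% of all genes. Casp9, the caspase of the apoptosome, was at 6.56 and 7.22 FPKM at day 6, against 2.46 and 1.69 FPKM at day 4 (1.37, SE 0.41; limma, adjusted p = 0.289). The caspase list was also 1.69 log2 units lower in day 4 replicate 2 than in day 4 replicate 1 by its median, against 0.26 for all genes.

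Of 7 tested paralogs of members, 4 lay higher with no overlap and 1 lower (median 1.48), beside 41.5 and 11.5% of all genes and their median of 0.51. Sesn1, a sestrin that responds to FoxO factors as well, was at 3.65 and 5.39 FPKM at day 6, at 0.719 FPKM in day 4 replicate 1 and listed at 0 in day 4 replicate 2 (2.05, SE 0.47; limma, adjusted p = 0.265). Ccng2, the FoxO-responsive cyclin G2, was at 4.35 and 5.61 FPKM at day 6, against 0.502 and 1.02 FPKM at day 4 (1.77, SE 0.41; limma, adjusted p = 0.265). The difference of Sesn2 was -0.54 and that of Ccng1 0.25, and the contrast between paralogs was not tested. Phlda1, a relative of Phlda3, was at 72.9 and 35.8 FPKM at day 6, against 147 and 604 FPKM at day 4 (-2.52, SE 0.89; limma, adjusted p = 0.312), and like Phlda3 it was highest in day 4 replicate 2. The Phlda1 transcript has 58.9% GC. Genes of GC content near that of Sesn2 (58.7% GC) had a median of 1.08 log2 units, day 4 replicate 2 minus replicate 1. The part of GC content in the likeness was not tested.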

How the data were processed

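Per the labels' protocols, poly(A) RNA was made into stranded TruSeq libraries. The submitters' processing notes name TopHat2 2.0.11, CASAVA and mm10, but no source used here gives the quantifier, the annotation or the use of strand. The authors deposited 1 FPKM value per transcript with a lower and an upper bound, and a coverage column, an unscaled signal that entered no level or test. For Bax and Phlda3 7 deposited values lie above their own upper bound. The tables hold no counts, so depth was estimated from the bounds, on the untested assumption that they cover counting error only.

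Rows were named from RefSeq (GRCm38.p6) and GENCODE M21 (94.2% of 35656 rows) and summed per symbol. Day 6 was compared with day 4 on log2(FPKM + 1), which understates the change of low genes, for genes averaging 1 FPKM or more, with limma 3.58.1 in R 4.3.3 (mean-variance trend, two-sided, Benjamini-Hochberg, threshold 0.05, no replicate block). The 95% intervals are limma's. GC content came from GENCODE transcripts for 97.2% of tested genes and was corrected by a lowess curve per library. The fit was tested on simulated data. With noise of SD 0.1 it called 100% of genes with a true log2 change of -2, -1, 1 or 2. With noise drawn for each gene separately, its SD a smooth curve of mean level fitted to the libraries, it called 2 and 0% at -1 and 1. At -2 and 2 it called 30 and 32%. This noise leaves out differences in spread between genes of like level and shifts shared by genes of like GC content. These shares are therefore not the power of the libraries themselves, where 0% of all genes passed. A gene that did not pass may therefore still differ by that much. The members and lists were chosen with earlier results of these data known. All 10 members are described; of each further list, the 4 genes of smallest p and the most abundant were eligible to be named, with Cdkn1a and Mdm4. Genes named for the day 6 libraries alone (Perp, Plk2, Sesn1, Ddb2) were chosen after their values were seen. The alternatives were the replicate block, another pseudocount, 2 other filters, median centring, quantile normalisation, the GC correction, the most abundant row per gene and leaving out each library.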

Additional observations from a re-analysis of the deposited data

How the results depend on the processing

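No gene passed in any of the alternatives that kept all 4 libraries except under the replicate block, where 74 genes passed and 0 members did. Same-numbered libraries deviated from their day means with a correlation of -0.09 over genes, so the numbers are not shown to pair the samples, and the block changed no call of a member. Leaving out 1 library gave from 0 to 7834 genes called, from 1 to 4 members higher and from 1 to 5 lower without overlap (45.1 to 65.0% and 13 to 32% of all genes), and a median of the members from -0.41 to 0.32 and of the further targets from 0.15 to 0.98. Under median centring 0 members were higher and 3 lower without overlap (20.3 and 26.4% of all genes), and the medians of the members and further targets were -0.80 and -0.076 (all genes -0.12). Under quantile normalisation 3 were lower (25.0% of all genes). Under the GC correction 0 were higher and 3 lower (28.1 and 27.2% of all genes), with a further-target median of -0.11 (all genes 0.021). With the most abundant row 0 were higher and 2 lower (41.0 and 11.6% of all genes). Differences changed sign under median centring for Trp53 (-0.15), Ccng1 (-0.38), Bax (-0.31) and the rows NM_011640 (-0.21) and NM_001288586 (-0.12), and under the GC correction for Trp53 (-0.080), Mdm2 (-0.0034) and Ccng1 (-0.073). Without 1 library the differences ranged from -0.30 to 0.80 for Ccng1, -1.76 to 1.28 for Bbc3, -1.49 to 0.40 for Sesn2, -1.03 to 0.13 for Trp53inp1, -0.30 to 0.10 for Zmat3, -1.54 to 0.42 for Phlda3, -0.015 to 0.98 for NM_001288586 and -0.037 to 2.23 for NM_010786. Trp53, Mdm2, Pmaip1, Bax and the other 4 transcript rows kept their direction in each fit without 1 library. The cause was not tested. Where 1 library is left, it is assumed to vary like those of the other day, and the estimated depth limits low rows such as NM_001199105.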
